A study of Mus musculus with 8 samples.

Results

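The comparison set the 2 libraries labelled HSVTK GANC against the 2 libraries labelled Control GANC, 4 of the 8 RNA sequencing libraries of a study of mouse embryonic stem cells, across every gene that passed a filter on low counts. The HSVTK cells carry a reporter in which the 2-cell-like (2C) state drives the thymidine kinase of herpes simplex virus, and the Control cells, also mouse embryonic stem cells, are described by that word alone. Both groups received ganciclovir (GANC), and the corresponding DMSO libraries, 2 per group, showed which differences were present without the drug. Dose and length of treatment are absent from the labels, as are the construct in the Control cells, if any, and whether either line is a single clone. Separate cultures are not named for the libraries of a group. All p-values thus rest on the spread between libraries, and this spread may be technical.

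Embryonic stem cells come from the inner cells of the early embryo and keep its ability to form every tissue, and a small, changing share of them passes through a state with the gene activity of the 2-cell embryo. The viral thymidine kinase adds a phosphate to ganciclovir, after which cellular kinases complete a toxic nucleotide that stops DNA synthesis, so cells with an active reporter are meant to die. A comparison of both cell groups under the drug holds the drug constant. In it alone, a response of the HSVTK cells to the drug and a standing difference between the cell groups cannot be told apart, and the DMSO libraries give the standing difference.

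Libraries held 29704460 to 34184475 counts, and 17976 genes were tested. The libraries labelled HSVTK GANC stood apart in their mitochondrial share, at 3.56 and 3.45% against 2.88 to 3.17% in the other 6, and in genes with a count, at 25146 and 25656 against 23777 to 24772. The part of these shifts in the results was not tested. Markers of embryonic stem cells were present throughout: Pou5f1, a core pluripotency factor, stood at 626 and 696 CPM (counts scaled to a library of 1000000 with TMM factors) in Control GANC and at 701 and 674 in HSVTK GANC, with a log2 fold change of 0.06 ± 0.06 (SE, adjusted p = 0.494). The drug is meant to lower genes of the 2C state in HSVTK cells, yet the libraries labelled HSVTK GANC held more of their RNA. Every direction below therefore rests on the labels.

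Under ganciclovir 4685 of 17976 tested genes differed between the cell groups (26.1%; edgeR's quasi-likelihood test, Benjamini-Hochberg adjusted p below 0.05). Of these, 2004 were higher (11.1%) and 2681 lower (14.9%) in HSVTK GANC, and 1022 differed at least 2-fold, 497 higher and 525 lower. The median log2 fold change of all tested genes was 0.01. The balance of directions rested on the scaling, since library size scaling in place of TMM gave 2579 higher and 2190 lower, or 54.1% higher instead of 42.8%. The count fell to 2982 without HSVTK GANC replicate 2 and to 2288 with limma on unfiltered log2(FPKM + 1). For scale, the same cell groups under DMSO differed in 6060 genes (33.7%), 2957 higher and 3103 lower.

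A large share of the differences was also present without the drug. Of the genes higher in HSVTK GANC, 616 were higher in HSVTK DMSO as well, which is 30.7% of the first list and 20.8% of the second. Of the genes lower in HSVTK GANC, 1012 were lower in HSVTK DMSO, or 37.7% and 32.6% of the lists. A further 472 genes were lower under ganciclovir and higher under DMSO (17.6% and 16%). In the other direction, 252 were higher under ganciclovir and lower under DMSO (12.6% and 8.12%). By comparison, 16.4% of all tested genes were higher and 17.3% lower under DMSO, and 11.1% and 14.9% under ganciclovir. The 30.7% and 37.7% of shared direction lie above these DMSO shares. Of the opposite calls, the 17.6% lies near its share of all genes and the 12.6% below. Under DMSO 1136 of the higher and 1197 of the lower genes were not called, which does not show that they were equal there. These comparisons share no library.

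**Figure D1:**
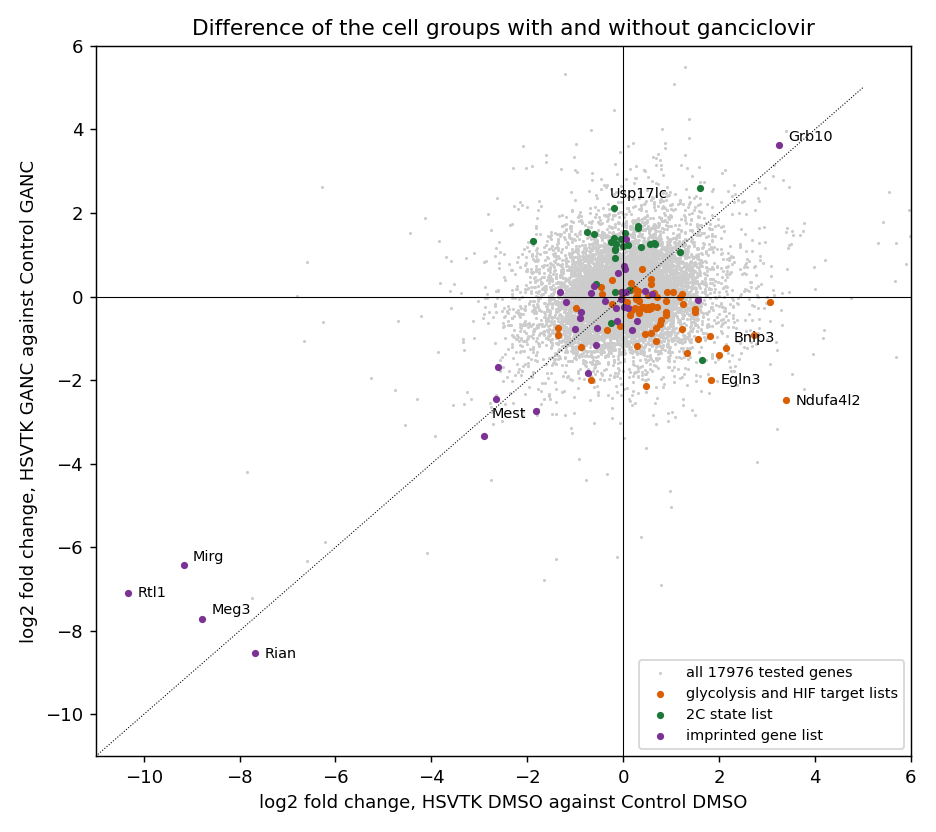
Log2 fold change of HSVTK against Control under DMSO (x axis) and under ganciclovir (y axis) for each of the 17976 tested genes, with 3 gene groups coloured and a dotted line of equal values. Imprinted genes such as Meg3, Rian, Mest and Grb10 lie near the line at both ends, glycolysis and hypoxia genes such as Ndufa4l2 and Bnip3 lie right of and below 0, and 2C genes lie above 0 near the middle of the x axis.

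The largest differences lay in imprinted genes, which are read from only the maternal or only the paternal chromosome. Transcripts of the Dlk1-Dio3 domain of chromosome 12 were close to absent in HSVTK GANC. This domain makes long noncoding RNAs from the maternal chromosome (Meg3, Rian, Mirg) and proteins from the paternal one (Dlk1, Rtl1). Meg3 (ENSMUSG00000021268) stood at 152 and 132 CPM in Control GANC and at 0.602 and 0.747 in HSVTK GANC, and Rian (ENSMUSG00000097451), which hosts small nucleolar RNAs, stood at 211 and 193 against 0.38 and 0.687. No HSVTK library came near any Control library for either gene. Genes taken for the size of their difference were required to have separate libraries under ganciclovir, so that separation is a description and no support. By summed counts Meg3 was 211-fold lower (44 against 9096 counts, 95% counting interval 157 to 290) and Rian 376-fold lower (35 against 12908 counts, 270 to 540). These intervals cover counting error only.

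Mirg, a microRNA host of the same domain, was 87.6-fold lower by counts (13 against 1117, interval 51.0 to 165), and 12 of its 13 counts lay in 1 library, HSVTK GANC replicate 1, where it stood at 0.38 CPM against 0.0299 in replicate 2. Rtl1, a retrotransposon-derived gene needed in the placenta, had 2 counts in HSVTK GANC against 302 in Control GANC, a ratio of 154 with an interval of 42.2 to 1276. With strand not given in the sources used here, reads of Rtl1 and of the RNA opposite to it cannot be told apart. Dlk1, a Notch-like growth regulator, stood at 1.96 and 3.68 CPM in Control GANC and 0.57 and 0.269 in HSVTK GANC. Its log2 fold change of -2.74 ± 0.40 (adjusted p = 5.54e-06) lost its call with limma on unfiltered log2(FPKM + 1) (adjusted p = 0.0563). The same genes were low in HSVTK DMSO, where Rian was 204-fold and Meg3 442-fold lower by counts than in Control DMSO, and Rtl1, with 0 counts, at least 110-fold lower against a floor of 3 counts over the group.

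Grb10 (ENSMUSG00000020176), an imprinted adaptor that restrains insulin and growth factor signalling, was the largest rise among the genes eligible by size. It stood at 43.6 and 45.2 CPM in Control GANC and at 571 and 531 in HSVTK GANC, 12.4-fold higher, with a log2 fold change of 3.63 ± 0.06 (adjusted p = 5.55e-26). The DMSO libraries split the same way and stood at 48.7 and 47.7 against 464 and 449 CPM. The difference was larger under the drug, by 0.39 ± 0.09 on the log2 scale (interaction, adjusted p = 0.0011). Mest, a paternally expressed hydrolase, stood at 10.5 and 11.6 CPM in Control GANC and 2.31 and 1.73 in HSVTK GANC, a log2 fold change of -2.45 ± 0.18 that did not pass the interaction test (0.20 ± 0.25, adjusted p = 0.619). Over all 36 tested imprinted genes, 4 were higher and 15 lower, against 11.1% and 14.9% of all tested genes. Their median was -0.27 under ganciclovir and -0.46 under DMSO. The number higher was 2 without HSVTK GANC replicate 1 and again without replicate 2.

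Beyond imprinted genes, several of the largest differences were also present under DMSO. Aass (ENSMUSG00000029695), the first enzyme of lysine breakdown, stood at 131 and 132 CPM in Control GANC and 20.3 and 24 in HSVTK GANC, with 126 and 125 against 39.3 and 36.9 under DMSO. The groups were separate under DMSO as well, and the difference grew under the drug (log2 fold change -2.56 ± 0.08 under ganciclovir, -1.72 under DMSO, interaction -0.85 ± 0.11, adjusted p = 1.1e-06). Smoc1, a secreted modulator of BMP signals, gave -2.73 ± 0.14. Dppa3, a maternal factor that protects DNA methylation at imprints, fell from 9.18 and 10.3 to 1.43 and 1.94 CPM, by 2.52 ± 0.21 on the log2 scale (adjusted p = 1.78e-10). The X-linked homeobox genes Rhox6 and Rhox9 gave -2.55 ± 0.29 and -2.64 ± 0.31. As paralogs they may share reads, whose handling is unknown.

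On the higher side, Gpx2, a glutathione peroxidase, stood at 6.18 and 6.20 CPM in Control GANC and 30.2 and 33.5 in HSVTK GANC, a log2 fold change of 2.36 ± 0.13 (adjusted p = 5.54e-14). Hoxa10, a posterior body axis factor, was 8.69-fold higher by counts (124 against 14, interval 4.99 to 16.4). Hopx, a small homeodomain protein, rose by 2.44 ± 0.21, the ubiquitin ligase-like Lonrf2 by 2.22 ± 0.23 and Ptgs1, a prostaglandin synthase, by 2.21 ± 0.21. Each of Hopx, Gpx2, Lonrf2 and Ptgs1 was also higher under DMSO and passed the interaction test, with the difference larger under ganciclovir. Zan, a sperm membrane protein that binds the egg coat, rose by 2.26 ± 0.22 and by 2.32 under DMSO (interaction -0.06 ± 0.32, adjusted p = 0.923).

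**Figure D2:**
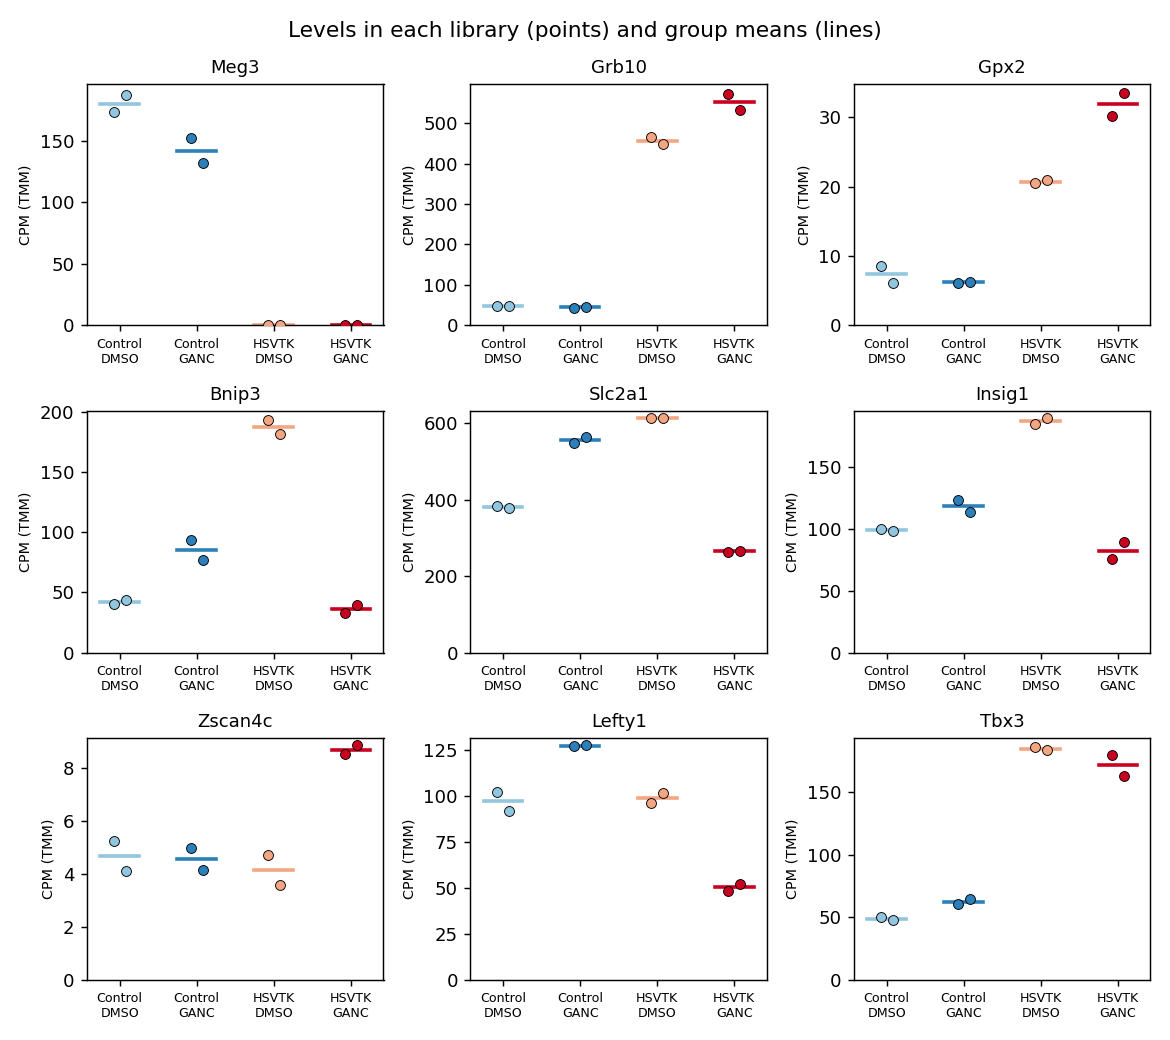
Level of 9 genes in CPM (TMM-scaled, linear axes from 0) in each of the 8 libraries, points for libraries and lines for group means. Meg3, Grb10 and Tbx3 separate the HSVTK from the Control libraries under both treatments, Bnip3, Slc2a1 and Insig1 are high in HSVTK DMSO and low in HSVTK GANC, and Zscan4c is highest and Lefty1 lowest in HSVTK GANC.

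Genes that cells turn on when oxygen is low formed a group that was lower in HSVTK GANC. When oxygen falls, hypoxia-inducible factors (HIF) escape destruction and bind DNA whose core letters are ACGTG. Their targets move cells from respiration to glycolysis, remove mitochondria and slow growth. To show where those letters lie near genes that the result turns on, the promoter stretches of 3 targets follow. Each covers bases 250 to 71 before the RefSeq start of the gene (GRCm38.p6, minus strand of the chromosome, written 5′ to 3′ along the gene), with ACGTG on either strand in capitals.
Egln3 at chr12:54203945-54204124: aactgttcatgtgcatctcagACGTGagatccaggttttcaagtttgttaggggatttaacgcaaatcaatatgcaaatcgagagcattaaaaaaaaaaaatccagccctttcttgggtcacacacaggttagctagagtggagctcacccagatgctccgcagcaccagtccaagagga
Bnip3 at chr7:138909577-138909756: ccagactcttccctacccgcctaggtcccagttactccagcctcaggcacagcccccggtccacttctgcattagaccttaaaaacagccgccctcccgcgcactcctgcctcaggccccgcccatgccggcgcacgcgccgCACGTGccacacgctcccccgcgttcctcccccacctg
Ddit4 at chr10:59951841-59952020: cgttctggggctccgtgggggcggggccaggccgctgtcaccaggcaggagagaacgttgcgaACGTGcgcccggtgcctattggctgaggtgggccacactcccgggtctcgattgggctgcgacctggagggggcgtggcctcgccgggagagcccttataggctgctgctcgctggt

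The match begins 229 bases before the start in Egln3 and 187 in Ddit4. In Bnip3 the palindrome CACGTG holds the letters on both strands, in 2 overlapping matches that begin 108 and 107 bases before the start. The letters are short, and 3454 of 27025 RefSeq genes (12.8%) hold ACGTG on either strand in the same 180 bases. That share covers all RefSeq genes, tested or not, while the shares below cover tested genes only, so the sets are unlike. Among the hypoxia targets outside glycolysis, 14 of the 30 tested members with a RefSeq promoter hold it (46.7%), and 7 of the 13 called lower with one (53.8%). Among tested genes of glycolysis and glucose uptake it is 10 of 33 (30.3%), and 7 of 21 called lower (33.3%). A match is only a description of the sequence.

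Egln3 (ENSMUSG00000035105), an oxygen sensor that marks HIF for destruction and is itself a HIF target, stood at 31.5 and 32.3 CPM in Control GANC and at 7.38 and 8.66 in HSVTK GANC. Under DMSO the order was turned around, with 14.4 and 14.8 in Control and 53.8 and 50.9 in HSVTK. The groups did not overlap under either treatment, and the log2 fold change was -1.99 ± 0.10 under ganciclovir (adjusted p = 2.24e-14) and 1.84 under DMSO (interaction -3.83 ± 0.14, adjusted p = 1.8e-17).

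Bnip3 (ENSMUSG00000078566), a receptor for mitophagy, behaved alike, with 93.7 and 77.1 CPM in Control GANC against 32.6 and 39.7 in HSVTK GANC, and 40.4 and 43.5 against 193 and 181 under DMSO. Its log2 fold changes were -1.24 ± 0.09 and 2.15. Ndufa4l2 (ENSMUSG00000040280), a mitochondrial protein that lowers respiration, was the furthest apart, at 12.7 and 10.6 CPM in Control GANC and 1.27 and 2.87 in HSVTK GANC, against 2.80 and 2.63 and then 28.1 and 29.0 under DMSO. In it the drug groups differed by -2.48 ± 0.20 (adjusted p = 1.21e-10), the DMSO groups by 3.39 and both differences from each other by -5.87 ± 0.27. Ddit4, which restrains the growth kinase mTOR, fell by 0.90 ± 0.07, and Bhlhe40, a circadian and hypoxia repressor, by 2.14 ± 0.16.

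Of 37 tested HIF targets outside glycolysis, 18 were lower and 2 higher in HSVTK GANC, against 14.9% and 11.1% of all tested genes, with a median of -0.24. Under DMSO 26 were higher and 3 lower (median 0.58, background 16.4% and 17.3%). The 14 genes called lower with the drug and higher without it are 14 of 18 and 14 of 26. Over all tested genes such opposite calls made up 17.6% of those lower with the drug and 16% of those higher without it. The count of 18 was 11 with limma on log2(FPKM + 1) and 8 without a filter. Kdm3a, a histone demethylase, went another way. It was lower in HSVTK cells under both treatments (-0.75 and -1.36) and lies in a segment of chromosome 6 where most genes were lower, described below.

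Glucose uptake and glycolysis, the conversion of glucose to pyruvate and lactate, showed the same pattern. Slc2a1 (ENSMUSG00000028645), the main glucose transporter, stood at 549 and 565 CPM in Control GANC and at 264 and 266 in HSVTK GANC, 2.1-fold lower, with a log2 fold change of -1.07 ± 0.05 (adjusted p = 5.23e-15). Under DMSO HSVTK cells had more of it, 615 and 612 against 382 and 379 CPM. Pgm1, which links glycogen to glycolysis, fell by 1.41 ± 0.11, Ldhb, a lactate dehydrogenase subunit, by 1.18 ± 0.07 and the lactate exporter Slc16a3 by 1.01 ± 0.07 on the log2 scale. All of these were higher in HSVTK cells under DMSO. Hk2, the hexokinase that commits glucose to use, was lower under both treatments (-1.2 and -0.88) and lies in the chromosome 6 segment.

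Of the 34 tested genes of glycolysis and glucose uptake, 22 were lower and 1 higher, against 14.9% and 11.1% of all tested genes. Their median was -0.30, against 0.39 under DMSO, where 24 were higher and 3 lower (background 16.4% and 17.3%). The 18 genes with opposite calls are 18 of 22 and 18 of 24, against 17.6% and 16% over all tested genes. In Slc2a1, Egln3, Bnip3 and Ndufa4l2, both Control libraries were higher with the drug than without it, and both HSVTK libraries were lower.

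Sterol synthesis, which makes cholesterol under control of the factor SREBP2, was lower in HSVTK GANC as well. Insig1, which retains the SREBP complex in the endoplasmic reticulum, stood at 123 and 113 CPM in Control GANC and 75.8 and 88.9 in HSVTK GANC, and at 99.4 and 98.3 against 185 and 189 under DMSO. The log2 fold change was -0.52 ± 0.07 (adjusted p = 2.08e-06), against 0.92 under DMSO. Fdft1, which makes squalene, fell by 0.46 ± 0.07 and Srebf2, which encodes SREBP2, by 0.36 ± 0.06. Ebp, a sterol isomerase, was the 1 member that rose (0.64 ± 0.08, adjusted p = 8.15e-07). Of 26 tested members 15 were lower and 1 higher (median -0.25), against 14.9% and 11.1% of all tested genes. Under DMSO 20 were higher and 0 lower (median 0.49, background 16.4% and 17.3%). The 11 genes with opposite calls are 11 of 15 and 11 of 20, against 17.6% and 16% over all tested genes.

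Fatty acid synthesis had 10 of 18 tested members lower and 4 higher, against 14.9% and 11.1% of all tested genes. The median was -0.27, and 0.43 under DMSO. The desaturase Fads2 stood at 55.6 and 53.9 CPM in Control GANC and 33.4 and 33.2 in HSVTK GANC, 1.64-fold lower, while Scd2, which makes monounsaturated fatty acids, fell by 0.38 ± 0.05. Elovl5, which lengthens polyunsaturated fatty acids, rose by 0.43 ± 0.07 under ganciclovir and by 0.46 under DMSO. Without HSVTK GANC replicate 2 the number lower was 6, and without Control GANC replicate 1 the number higher was 2.

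The 2C state is marked by genes that are normally active in the 2-cell embryo, among them Zscan4 copies tied to telomere lengthening, deubiquitinases of the Usp17l family and eIF1A-like genes. In the libraries labelled HSVTK GANC 17 of 27 tested members were higher and 1 lower than in Control GANC, with a median log2 fold change of 1.27. The background was 11.1% and 14.9% of all tested genes. Under DMSO the cell groups differed in 1 member upward and 2 downward, with a median of -0.05 (background 16.4% and 17.3%). More 2C-like cells and more 2C RNA per cell cannot be told apart in bulk libraries.

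Zscan4a (ENSMUSG00000110097) stood at 6.63 and 4.67 CPM in Control GANC and at 13.4 and 16.1 in HSVTK GANC, a log2 fold change of 1.38 ± 0.16 (adjusted p = 8.84e-08). Zscan4c rose by 0.93 ± 0.18, Zscan4d by 1.26 ± 0.17, Zscan4f by 1.21 ± 0.21 and Usp17lb by 1.65 ± 0.23. The eIF1A-like Gm21761 stood at 7.52 and 7.42 against 19.2 and 17.7 CPM, a log2 fold change of 1.30 ± 0.13. For each of these genes both HSVTK GANC libraries lay above both Control GANC libraries. Genes of a list were taken largely for low adjusted p, so that separation is a description and no support. Copies of these families are nearly identical, so values of single copies are uncertain. Zfp352, a zinc finger gene of the 2-cell embryo, had 47 counts against 16, a ratio of 2.88 with a counting interval of 1.61 to 5.45, and a log2 fold change of 1.54 ± 0.71 (adjusted p = 0.111). Pramel12 was the member that fell (by 0.63 ± 0.08). The summed level of the 38 listed genes in the files was 496 and 459 CPM in Control GANC and 560 and 587 in HSVTK GANC. Under DMSO the sums were 494 and 503 CPM in Control and 531 and 514 in HSVTK, so the sum was also higher in HSVTK without the drug. A sum is carried by the most abundant members. Gene by gene, 1 tested member was higher and 2 lower under DMSO (median -0.05). Of the 38 genes, 4 had no count in the 4 ganciclovir libraries.

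Genes of the germline and meiosis tended upward. Of 34 tested members 13 were higher and 4 lower, against 11.1% and 14.9% of all tested genes. The median was 0.23, and 0.39 under DMSO. Tex19.1, which protects germ cells from retrotransposons, stood at 93.3 and 110 CPM in Control GANC and 180 and 173 in HSVTK GANC, a log2 fold change of 0.79 ± 0.07 (adjusted p = 1.3e-09). Dazl, an RNA-binding protein of germ cells, rose by 1.17 ± 0.14. Both were also higher under DMSO. Aurkc, a kinase of meiotic division, turned over: 13.1 and 13.6 CPM in Control GANC against 2.34 and 3.26 in HSVTK GANC, and 7.07 and 5.60 against 18.5 and 20.9 under DMSO (log2 fold changes -2.25 ± 0.16 and 1.63, interaction -3.88 ± 0.22, adjusted p = 1.24e-13).

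Among core pluripotency factors Sox2 stood at 488 and 493 CPM in Control GANC and 371 and 342 in HSVTK GANC, a log2 fold change of -0.46 ± 0.05 (adjusted p = 2.07e-07). Under DMSO it differed by 0.04 (adjusted p = 0.656), and the interaction was -0.50 ± 0.08 (adjusted p = 1.84e-05). Nanog rose by 0.22 ± 0.05 (adjusted p = 0.00253), with 537 and 561 against 619 and 657 CPM, and by 0.18 under DMSO. Of the 12 genes that mark embryonic stem cells, 3 were higher and 2 lower, against 11.1% and 14.9% of all tested genes.

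Naive pluripotency, the state of the preimplantation embryo, split evenly, with 8 of 30 tested members higher and 8 lower (median 0.03). Among all tested genes 11.1% were higher and 14.9% lower. Tbx3, a factor that supports self-renewal, stood at 60.8 and 64.5 CPM in Control GANC and at 180 and 164 in HSVTK GANC, 2.74-fold higher. It was also higher under DMSO, by 1.92 on the log2 scale against 1.46 ± 0.07 under the drug. Tet2, which oxidises methylated cytosine, rose by 0.84 ± 0.07 and the junction protein Jam2 by 0.71 ± 0.06. Pim1, a kinase induced by LIF signalling, fell by 0.75 ± 0.07, and under DMSO it was higher by 0.21.

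Genes of formative and primed pluripotency, which come on as cells leave the naive state, were lower. Of 23 tested members 11 were lower and 3 higher (median -0.30), against 14.9% and 11.1% of all tested genes. Under DMSO 7 were higher and 7 lower (median -0.04, background 16.4% and 17.3%). Zic2 and Zic5, zinc finger factors of the epiblast that lie next to each other, stood at 31.7 and 33.4 CPM and at 33.7 and 30.8 in Control GANC, and at 14.3 and 13.3 and 13.2 and 14.6 in HSVTK GANC. Under DMSO both were about as much higher in HSVTK cells (1.25 and 1.43) as they were lower under the drug (-1.24 ± 0.09 and -1.21 ± 0.10). Lef1, a Wnt effector, moved the same way, at -1.46 ± 0.12 and 1.21. The DNA methyltransferases Dnmt3a and Dnmt3b fell by 0.78 ± 0.07 and 0.72 ± 0.06, of which Dnmt3b was lower under DMSO too (-0.39).

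Nodal and BMP signalling, the 2 branches of the TGF-beta family that pattern the embryo, had 9 of 25 tested members lower and 4 higher (median -0.33). Among all tested genes 14.9% were lower and 11.1% higher. Under DMSO the list had 7 higher and 7 lower (median 0.02, background 16.4% and 17.3%). The Nodal antagonists and targets Lefty1 and Lefty2 were lower: Lefty1 stood at 127 and 128 CPM in Control GANC and 48.5 and 52.2 in HSVTK GANC, 2.53-fold lower (log2 fold change -1.34 ± 0.07, adjusted p = 2.61e-14), and Lefty2 was 1.99-fold lower. Under DMSO Lefty1 stood at 0.02 (adjusted p = 0.837), and its interaction was -1.36 ± 0.10. Skil, a repressor of the Smad proteins and itself a target, fell by 1.11 ± 0.07, against -0.30 under DMSO. Id2, a BMP target, was lower by 1.33 ± 0.11, and further lower without the drug (-1.89, interaction 0.56 ± 0.15, adjusted p = 0.00585). Inhbb, which encodes a subunit of activin B, rose by 1.63 ± 0.08 and by 1.81 under DMSO.

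The list of ERK feedback and immediate early genes, which report growth factor signalling, had 10 of 25 lower and 3 higher (median -0.18). Shares over all tested genes were 14.9% and 11.1%. Egr1, an immediate early factor, stood at 34.1 and 34.1 CPM in Control GANC and 13.2 and 14.1 in HSVTK GANC, 2.50-fold lower, and was higher in HSVTK cells under DMSO (33.3 and 28.9 against 52.1 and 53.6). Spred1, an inhibitor of the pathway, was lower under both treatments (-0.83 and -0.91) and lies in a segment of chromosome 2 described below. The higher members included Dusp6 (0.45 ± 0.07, adjusted p = 1.47e-05) and Etv4 (0.36 ± 0.07, adjusted p = 0.000116). Both were also higher under DMSO (0.27 and 0.35), so the list did not move as 1 group.

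Markers of other cell types that the cultures could hold were measured from lists of each. For all of these lists the background was 11.1% of tested genes higher and 14.9% lower. Primitive endoderm, the extraembryonic lineage that lines the yolk sac, had 10 of 21 tested members higher and 1 lower (median 0.70, against 0.33 under DMSO). The endoderm factor Gata6 had 6 counts in Control GANC and 99 in HSVTK GANC, a ratio of 16.2 with an interval of 7.18 to 45.2, and 11 against 127 under DMSO. Basement membrane genes split: Col4a1 stood at 6.33 and 6.96 against 14.6 and 14.5 CPM (1.13 ± 0.14), Lama1 rose by 0.70 ± 0.08 and Sparc by 0.34 ± 0.07, while the laminin Lamb1 fell from 49.1 and 52.8 to 34.5 and 30.3 CPM. In the wider list of collagens and extracellular matrix 11 of 44 tested members were higher and 13 lower (median -0.14). The summed level of all 24 markers was 666 and 695 CPM in Control GANC and 815 and 734 in HSVTK GANC, and Ttr had no count. The number higher was 4 with limma on unfiltered log2(FPKM + 1).

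Trophectoderm, the outer layer that forms the placenta, had 7 of 18 tested markers lower and 2 higher (median -0.57, -0.10 under DMSO). Fgfr2, the FGF receptor of that layer, stood at 15 and 15 CPM in Control GANC and 4.25 and 4.15 in HSVTK GANC (-1.83 ± 0.14), and the factor Tfap2c fell by 1.03 ± 0.09, from 37.1 and 37.6 to 18.4 and 18.2 CPM. Krt8, an epithelial keratin, rose by 1.44 ± 0.22. Their summed level was 90.3 and 98.2 CPM in Control GANC and 62.9 and 61.7 in HSVTK GANC. Dppa1, Prl3d1 and Tpbpa, the latter both markers of placental trophoblast, had no count in these libraries.

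Neuroectoderm markers had 4 of 10 tested members lower and 1 higher (median -0.33), with a summed level of 175 and 193 CPM in Control GANC and 178 and 167 in HSVTK GANC, and Dcx and Fabp7 without a count. Pax6, a factor of eye and brain, fell by 1.67 ± 0.12 and lies in the chromosome 2 segment, and Msi1, an RNA-binding protein of neural progenitors, fell by 1.51 ± 0.12. Mesoderm and primitive streak markers had 5 of 19 higher and 2 lower (sums 57.5 and 62.6 against 71.3 and 66.1 CPM, Foxf1 and Msgn1 without a count). That number higher was 3 without Control GANC replicate 1, HSVTK GANC replicate 1 or HSVTK GANC replicate 2. Kdr, a receptor of blood vessel precursors, rose by 1.97 ± 0.41 (adjusted p = 0.000635, and 0.0512 with limma on unfiltered FPKM). Tbx20, a heart factor, gave 1.24 ± 0.35 (adjusted p = 0.0091). That call was lost without HSVTK GANC replicate 1 and in 3 other settings, with adjusted p up to 0.203. Of 8 tested fibroblast and feeder markers 1 was higher and 2 lower (sums 287 and 304 against 276 and 264 CPM, with Fap, S100a4 and Twist2 without a count).

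**Figure D3:**
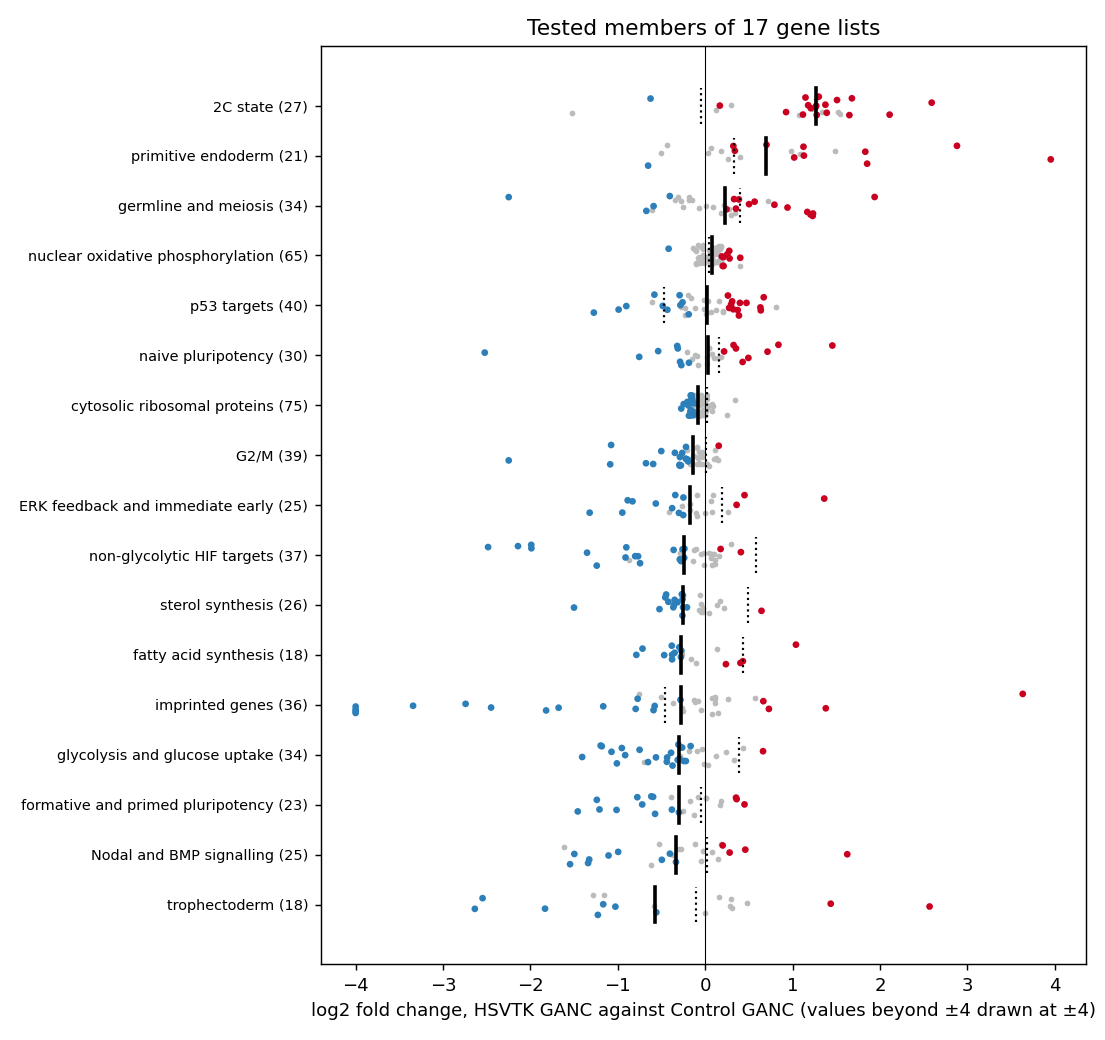
Log2 fold change of HSVTK GANC against Control GANC for each tested member of 17 gene lists (red called higher, blue called lower, grey not called, number of members in brackets), with a solid bar at the list's median and a dotted bar at its median under DMSO. The 2C state list has the highest median at 1.27, and glycolysis, HIF target and sterol synthesis lists have medians below 0 under ganciclovir and above 0 under DMSO.

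The p53 pathway, which halts or kills cells with damaged DNA, was split. Of 40 tested p53 targets 12 were higher and 10 lower (median 0.02), against 11.1% and 14.9% of all tested genes. Under DMSO 5 were higher and 22 lower (median -0.47, background 16.4% and 17.3%). The number higher under ganciclovir was 7 without Control GANC replicate 2 or HSVTK GANC replicate 2, and the median was -0.01 without a filter. Cdkn1a, the cell cycle inhibitor p21, stood at 44.8 and 53.2 CPM in Control GANC and 35.2 and 37.3 in HSVTK GANC, lower by 0.43 ± 0.09 (adjusted p = 0.000602, and 0.072 with limma on unfiltered FPKM). Under DMSO it was lower as well (-0.68). Trp53, which encodes p53, gave -0.15 ± 0.06 (adjusted p = 0.087) and its antagonist Mdm2 0.07 ± 0.07 (adjusted p = 0.511). For both of these the libraries overlapped between the groups. Among targets called, Sulf2, a heparan sulfate editor, rose by 0.67 ± 0.07 and the nucleotide kinase Ak1 by 0.40 ± 0.08, while Pltp, a lipid transfer protein, fell by 1.27 ± 0.10. Xpc, which senses DNA lesions, fell by 0.99 ± 0.11 and lies in the chromosome 6 segment.

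Genes of G2 and mitosis were lower more often than higher. Of 39 tested G2/M genes 17 were lower and 1 higher (median -0.14), against 14.9% and 11.1% of all tested genes. Outside the chromosome 2 and 6 segments 14 of 36 were lower, against 13.5% of all genes outside them. Without HSVTK GANC replicate 2 the number lower was 10. Pttg1, the securin that holds sister chromatids together, stood at 66.5 and 72.8 CPM in Control GANC and 31.3 and 34.3 in HSVTK GANC, 2.12-fold lower. Under DMSO Pttg1 differed by -0.10 (adjusted p = 0.316), and the interaction was -0.98 ± 0.11 (adjusted p = 9.5e-08). The checkpoint genes Mad2l1 and Bub1b and the spindle gene Nusap1 fell by 1.08, 0.59 and 0.68, and they lie in the segments. Mad2l1 and Bub1b did not pass the interaction test (0.01 ± 0.09 and -0.10 ± 0.08, adjusted p = 0.934 and 0.394).

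Enzymes and carriers of nucleosides, which handle ganciclovir and its natural relatives, had 5 of 35 tested members higher and 8 lower (median 0.07), against 11.1% and 14.9% of all tested genes. Outside the segments 5 of 32 were lower, against 13.5% of all genes outside them. Under DMSO 4 were higher and 15 lower (median -0.17, background 16.4% and 17.3%). Tk1, the cellular thymidine kinase, stood at 74.1 and 86.2 CPM in Control GANC and 94.5 and 94.7 in HSVTK GANC. Its log2 fold change of 0.24 ± 0.07 (adjusted p = 0.0132) lost its call without Control GANC replicate 1, without either HSVTK GANC library and with limma on unfiltered FPKM, with adjusted p up to 0.199. Slc29a3, a lysosomal nucleoside transporter, rose by 1.32 ± 0.09, from 19.2 and 17.8 to 47.8 and 44.4 CPM. Slc28a1, a concentrative nucleoside transporter, fell by 0.85 ± 0.08. The mitochondrial kinase Dguok, the nucleotidase Nt5c3 and the drug exporter Abcg2 were 2.29-fold, 2.64-fold and 1.77-fold lower, and all these lie in the chromosome 6 segment. The number higher was 10 with library size scaling, 8 without Control GANC replicate 2 and 3 without HSVTK GANC replicate 2, in the nucleoside supply and transport list. Nt5e, a surface enzyme that makes adenosine, rose by 1.72 ± 0.16 and by 1.99 under DMSO.

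Genes for cytosolic ribosomal proteins had 18 of 75 members lower and 0 higher (median -0.08), against 14.9% and 11.1% of all tested genes. The number lower moved with the setting: 5 with library size scaling, 38 without Control GANC replicate 1, 7 without Control GANC replicate 2 and 7 without HSVTK GANC replicate 1. Rpl23a, a protein of the large subunit, fell by 0.27 ± 0.05 (adjusted p = 0.000199, and 0.0608 with limma on unfiltered FPKM). Reads of processed pseudogenes of this gene may be counted with it. In the MHC class I and interferon list 7 of 37 tested members were higher and 5 lower, against 11.1% and 14.9% of all tested genes. Xaf1, an interferon-induced death regulator, stood at 5.50 and 4.41 CPM in Control GANC and 15.9 and 16.6 in HSVTK GANC (1.71 ± 0.15), and Apol6 rose by 1.25 ± 0.18. The antiviral membrane proteins Ifitm1 and Ifitm3 fell by 0.75 ± 0.06 and 0.91 ± 0.07 and were lower under DMSO too (-0.52 and -1.65).

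Neighbouring genes were lower together along stretches of chromosomes 2 and 6. The stretches were located in the DMSO libraries, as runs where the median log2 fold change of 31 neighbouring genes lay beyond 0.35 from 0, so the ganciclovir libraries are a separate measurement of them. Between Itprid2 and Sord on chromosome 2, 163 of 266 tested genes were lower in HSVTK GANC (61.3%, against 14.9% of all tested genes) and 4 higher, with a median of -0.49 against 0.02 in the rest of that chromosome. Between Scrn1 and Eogt on chromosome 6, 157 of 246 were lower (63.8%) and 0 higher, with a median of -0.91 against 0.04. The medians under DMSO were -0.58 and -0.95. On no other autosome, and not on chromosome X, did the running median under ganciclovir leave the range from -0.271 to 0.248.

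Members with known roles show what the stretches hold. On chromosome 2 Trp53bp1, which directs the repair of double-strand breaks, stood at 112 and 114 CPM in Control GANC and 48.2 and 44.4 in HSVTK GANC, lower by 1.29 ± 0.07 on the log2 scale and by 1.36 under DMSO. On chromosome 6 Mcm2, part of the replicative helicase, stood at 458 and 491 against 250 and 227 CPM, 1.99-fold lower (-0.99 ± 0.06). The groups did not overlap for either gene, and neither passed the interaction test. Outside the 2 segments 4361 of 17464 genes were called (25%), 2000 higher (11.5%) and 2361 lower (13.5%).

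**Figure D4:**
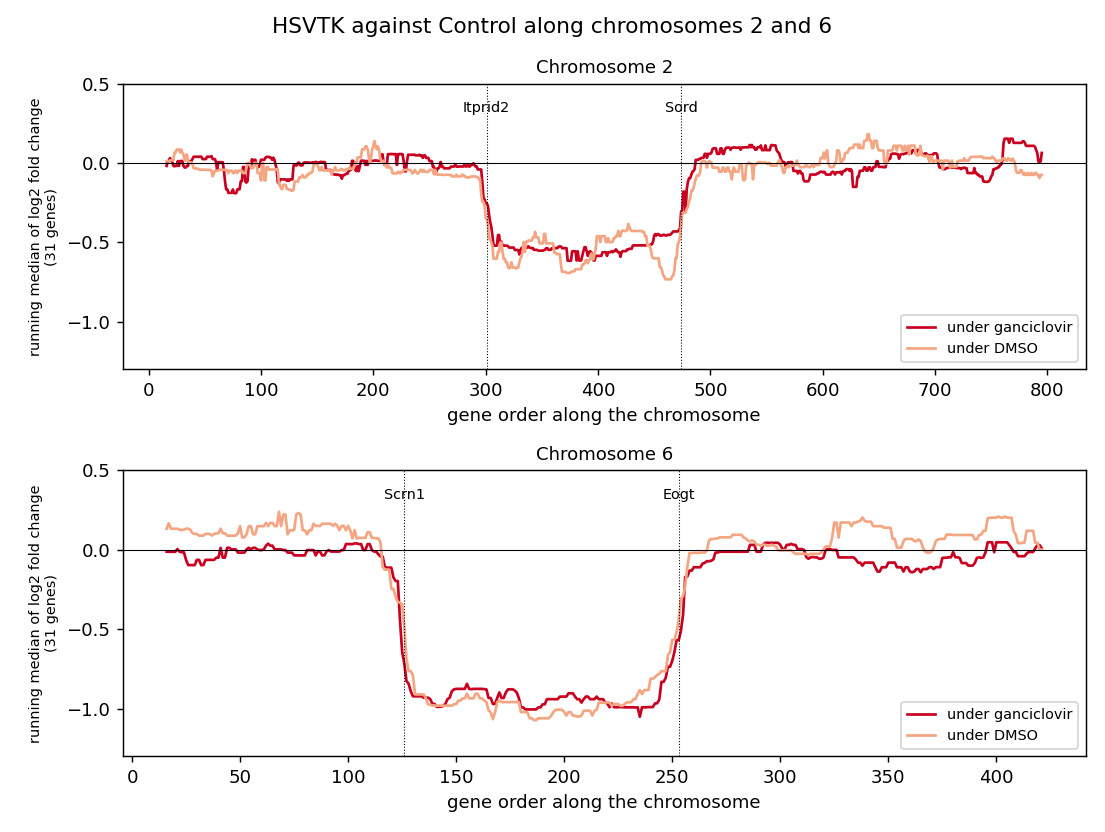
Running median over 31 neighbouring genes (mean CPM of at least 5 in the DMSO libraries) of the log2 fold change of HSVTK against Control, by gene order along chromosomes 2 and 6, under ganciclovir and under DMSO, with dotted lines at the named end genes. Both curves drop in the same stretches, to -0.62 and -0.73 on chromosome 2 and to -1.05 and -1.07 on chromosome 6, and lie near 0 elsewhere.

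A last set of genes differed under ganciclovir while their difference under DMSO lay within 0.25 of 0 on the log2 scale. Fgd5, a regulator of small GTPases of the vessel wall, stood at 8.17 and 7.32 CPM in Control GANC and 1.39 and 1.46 in HSVTK GANC, lower by 2.44 ± 0.21. Slfn9, a member of the Schlafen family, stood at 5.26 and 6 against 0.887 and 1.43 CPM, lower by 2.27 ± 0.22. In the other direction Spink1, a secreted trypsin inhibitor, stood at 3.51 and 3.08 against 12.1 and 13.8 CPM (1.97 ± 0.16), and Wnt6, a Wnt ligand, at 1.75 and 2.05 against 5.48 and 5.64 CPM (1.55 ± 0.23). These 4 were chosen for a large, called difference under ganciclovir, a called interaction of the same sign and a small DMSO difference, so their pattern across the groups is a description and supports nothing. Fgd5 lies in the chromosome 6 segment, where its DMSO difference was -0.23 (adjusted p = 0.37) and the segment's median -0.95. Ddx3y, a Y-linked RNA helicase, rose by 0.55 ± 0.09 and gave -0.08 under DMSO (adjusted p = 0.553). It was the 1 member higher of 7 tested Y-linked genes, of which 2 were lower (median -0.21). Among all tested genes 11.1% were higher and 14.9% lower.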

How the data were processed

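The 8 RNA libraries of mouse embryonic stem cells, 2 per group, were grouped by the cell group and treatment that the labels give. The authors deposited raw counts per gene (57010 Ensembl genes, 1606 without a symbol). The authors also deposited FPKM, which equal the counts divided by gene length and assigned reads within 1e-05. Per the submitters' processing notes, the build was GRCm39 and the tools were featureCounts 2.0.1, DESeq2 1.40.2, HISAT2 2.1.0 and fastp 0.23.2. Strand, multi-mapped reads and annotation release: not given in the sources used here.

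Counts were tested with edgeR 4.0.16 (quasi-likelihood F test, R 4.3.3) after TMM scaling and filterByExpr by group, with a model of group means over all 8 libraries and 4 residual degrees of freedom. The test added a prior of 23.5 degrees of freedom from spread shared across genes. P-values and standard errors of a gene thus rest largely on that shared spread. In all 17976 genes passed, with a biological coefficient of variation of 6.31%. P-values were adjusted over these genes by Benjamini-Hochberg and called below 0.05, and standard errors are the log2 fold change over the square root of F. This error is too small where a group has few counts. Contrasts were HSVTK against Control under GANC, the same under DMSO, and their difference (interaction). An exact permutation test of 2 against 2 libraries cannot go below p = 0.333. CPM are counts per 1000000 with TMM factors. Alternatives were library size scaling, DESeq2 1.42.0, other filters, limma 3.58.1 on log2(FPKM + 1) or log2(FPKM + 0.1), a replicate block, fewer libraries and leaving out each library. Replicates differed by more than counting noise (chi-square per degree of freedom 8.39 in Control GANC and 6.24 in HSVTK GANC). In simulated data for the ganciclovir comparison (17976 genes), 69% of 200 genes changed 1.5-fold and 86% of 200 changed 2-fold were recovered. The changed genes had a mean CPM of at least 1, and all other genes were left unchanged. In the data 26.1% of genes were called, so these rates do not give the power of the comparison itself.

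Named genes are the 12 largest differences in each direction among called genes (mean CPM at least 1, libraries separate), up to 5 members of lowest adjusted p per list with at least 3 called members, the 8 largest per direction shared with DMSO, the 8 largest per direction near 0 under DMSO (within 0.25), and Zscan4c, Zscan4d, Zscan4f, Zfp352, Pou5f1, Sox2, Nanog, Trp53, Cdkn1a, Mdm2 and Tk1. Model numbers, clones and pseudogenes were passed over among the largest (5 higher, 4 lower), and not every eligible gene is named or reported here. The 40 lists hold 1204 symbols, of which 1174 are in the files. The comparison, members and lists were chosen with earlier results of these data known. Chromosome and gene order came from GENCODE vM21 (GRCm38) by Ensembl ID for 17556 tested genes (97.7%), without coordinates. Promoters are from RefSeq (GRCm38.p6), matched by symbol.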

Additional observations from a re-analysis of the deposited data

Results flagged for a closer look

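For 4595 genes the difference of HSVTK against Control cells under ganciclovir differed from that under DMSO by edgeR's interaction test (25.6% of tested genes), and 73 genes named above are among them. Values below are these differences of differences on the log2 scale, ganciclovir minus DMSO, each with an adjusted p below 0.05. They share their libraries with both comparisons and add no independent support.

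Below 0 the group of glycolysis and hypoxia targets stood at -5.87 for Ndufa4l2, -3.83 for Egln3, -3.41 for Pgm1, -3.40 for Bnip3, -2.61 for Bhlhe40, -2.57 for Slc16a3, -1.76 for Slc2a1, -1.47 for Ldhb, -1.35 for Ddit4 and -0.32 for Hk2. The lipid genes stood at -1.66 for Fads2, -1.44 for Insig1, -1.22 for Scd2, -1.04 for Srebf2 and -0.48 for Fdft1. Pluripotency and signalling genes stood at -2.66 for Lef1, -2.64 for Zic5, -2.49 for Zic2, -2.09 for Egr1, -1.36 for Lefty1, -1.06 for Dnmt3a, -0.96 for Pim1, -0.80 for Lefty2, -0.80 for Skil, -0.50 for Sox2, -0.46 for Tbx3 and -0.33 for Dnmt3b. Lineage markers stood at -1.86 for Msi1, -1.07 for Tfap2c, -0.89 for Fgfr2, -0.87 for Lamb1 and -0.66 for Col4a1. Germline and division genes stood at -3.88 for Aurkc, -1.13 for Dppa3, -0.98 for Pttg1 and -0.47 for Nusap1. The others below 0 were Slfn9 (-2.47), Fgd5 (-2.21), Rian (-0.87), Aass (-0.85), Smoc1 (-0.64), Nt5c3 (-0.49), Pltp (-0.42), Pramel12 (-0.37), Rpl23a (-0.32) and Sulf2 (-0.28). The value of Rian rests on 35 counts in HSVTK GANC and 77 in HSVTK DMSO.

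Above 0 the 2C genes stood at 1.56 for Gm21761, 1.43 for Zscan4a, 1.35 for Usp17lb, 1.2 for Zscan4f and 1.10 for Zscan4c. Tbx20 stood at 3.12, Kdr at 2.54, Apol6 at 2.64, Xaf1 at 1.74 and Ifitm3 at 0.74. Genes among the largest rises stood at 1.97 for Spink1, 1.57 for Wnt6, 1.57 for Lonrf2, 1.49 for Hopx, 1.07 for Ptgs1, 0.88 for Gpx2 and 0.39 for Grb10. Mirg and Meg3, at 2.74 and 1.07, rest on 2 to 44 counts per HSVTK group. The others were Ak1 (0.97), Ddx3y (0.63), Slc29a3 (0.61), Kdm3a (0.61), Id2 (0.56), Jam2 (0.51), Ebp (0.42) and Mdm2 (0.40).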

How the results depend on the processing

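Limits come first from 2 libraries per group, from unknown origin of the replicates and from labels that the 2C genes go against. With limma on unfiltered log2(FPKM + 1), the genes called numbered 2288 for HSVTK GANC against Control GANC, 3652 under DMSO and 1981 for the interaction, and those called in the same direction under both treatments 768. More genes are tested there (32857). Leaving out each library in turn gave 2982 to 4535 genes for the ganciclovir comparison (2982 without HSVTK GANC replicate 2), 4358 to 6571 under DMSO and 3460 to 4608 for the interaction. With a replicate block the counts were 4517, 5882 and 4433, and deviations of libraries with the same number correlated at -0.06 to 0.02. With 2 libraries per group these correlations cannot show whether libraries with the same number share a culture or preparation. With only the 4 libraries compared the count was 4179, and without genes of both segments, an alternative chosen after seeing the data, 4361. Over left-out libraries Mdm2 ranged from -0.0101 to 0.14, below 0 without Control GANC replicate 2 (-0.00963) or HSVTK GANC replicate 2, and Pou5f1 from -0.0168 without Control GANC replicate 1 to 0.13, and these negative values were not called. The cause was not tested. Of 108 genes with a result named here (Dusp6 and Etv4 not included), 104 were called, and 98 stayed called in each alternative run. Most were chosen for low adjusted p or a large difference in these same libraries. Their share that stayed called therefore does not describe called genes in general. Counting depth limits Rtl1, Mirg, Gata6, Hoxa10 and Zfp352, given with counting intervals.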

Other observations

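Further gene groups gave these values for HSVTK GANC against Control GANC, with 11.1% of all tested genes called higher and 14.9% lower. Of 65 tested nuclear genes of oxidative phosphorylation, which build the respiratory chain, 8 were higher and 1 lower (median 0.07). The number higher was 21 with library size scaling, 4 without Control GANC replicate 1 and 15 without Control GANC replicate 2 in the nuclear oxidative phosphorylation list. Of 13 mitochondrially encoded genes 4 were higher and 2 lower (median 0.16, against -0.11 under DMSO). Genes of homologous recombination and Fanconi anaemia had 7 of 31 members higher and 3 lower, and those of end joining and excision repair 3 of 41 higher and 6 lower. In the checkpoint and replication stress list 8 of 37 rose and 5 fell, and among G1/S and replication genes 8 of 41 rose and 5 fell. The factors that hold down the 2C state in stem cells, with other chromatin genes, had 1 of 33 higher and 5 lower (median -0.03). Clustered and linker histone genes had 0 of 40 higher and 2 lower, with a median of -0.23 under ganciclovir and 0.68 under DMSO, and most of their transcripts lack the poly(A) tail.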
